A study of Mus musculus with 9 samples.

Results

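Integrins are the adhesion receptors by which dendritic cells (DC) hold to other cells and to matrix. Each receptor is a pair of 1 α and 1 β chain, and the partner decides what it binds. The β2 chain pairs with αL (CD11a, giving LFA-1), αM (CD11b), αX (CD11c) and αD. The β7 chain pairs with α4 and αE (CD103), the β1 chain with α4, αv and many other α chains, and the β8 chain with αv. LFA-1 binds ICAM molecules, α4 receptors bind VCAM-1 or, with β7, MAdCAM-1, αEβ7 binds E-cadherin, and αvβ8 releases active TGF-β from its latent form. In mice CD11c is the usual marker of DC, CD11b marks one conventional subset and CD103 is found on part of the other.

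The 10 integrin chains examined here were taken by gene name from the count table of the series: the α chain genes Itgax, Itgam, Itgal, Itgae, Itga4 and Itgav and the β chain genes Itgb1, Itgb2, Itgb7 and Itgb8. They are 10 of 39179 genes listed, each on 1 row, and 9 of them were among the 13819 genes kept for testing. RNA came from spleens of C57BL/6J mice at steady state, with no treatment or transgene in any group, and the study's methods give the age of its mice as 6 to 12 weeks. There were 3 libraries each of cDC1 (CD8pos cDC1), cDC2 (CD8neg cDC2) and plasmacytoid DC (pDC), each sorted from a pool of 15 to 17 mice, so that no library is a single animal. Cells of other lineages were depleted with antibodies, then cDC1 were sorted as CD11c-high, CD317-low, CD8-positive and CD11b-negative, cDC2 as CD11c-high, CD317-low, CD8-negative and CD11b-positive, and pDC as CD11c-intermediate, CD317-high and CD11b-negative, with CD49b also stained. The proteins of Itgax and Itgam were therefore used to choose the cells, and these 2 genes are given as levels and folds without a test. The other 8 members were outside the panel. CD11b and CD11c reach the surface only with the β2 chain, so the gates also bear on Itgb2, and how far was not tested.

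Counts on genes summed to between 15806597 and 32453789 per library, at which 3 counts, used as the floor of detection, correspond to 0.0908 to 0.203 CPM (counts divided by library size and scaled up) and cover counting error only. Levels are given as CPM after TMM scaling (edgeR's correction of library sizes), with the SD over 3 libraries, and levels of different genes are compared only per kb of exon. The 3 replicate-3 libraries stood apart, and not in their rare genes alone. Between 508 and 1316 genes had 1 to 3 counts in them, against 2459 to 2987 in the other 6 libraries, and more genes were at 0 (24293 to 25693 against 21146 to 22634). Over counted genes, chi-square per degree of freedom between replicates of a subset was 42 to 67.7 for pairs with replicate 3. It was 10.6 to 19.8 between replicates 1 and 2. Subset markers followed the labels in part. Summed over 6 genes, pDC markers stood at 11241 to 12234 CPM in pDC and 142 to 216 in the other libraries, and cDC1 markers at 3733 to 4161 CPM in cDC1, 211 to 271 in cDC2 and 572 to 699 in pDC. The 6 cDC2 markers summed to 1435 to 1609 CPM in cDC2 and 93.7 to 150 in cDC1, but to 1638 to 1785 in pDC, since the pDC level of Cd209a was 214% of that in cDC2 and the level of Clec10a 3178%. Of other cells, NK cell markers summed to 89.5 to 184 CPM in cDC2, 131 to 165 in cDC1 and 26.1 to 59.1 in pDC, B cell markers to at most 51.4, T cell markers to at most 42.0 and erythroid markers to at most 66.9 CPM in any library, and their part in the levels of the members was not tested. In such sorted bulk samples, fewer cells carrying a transcript and less of it per cell cannot be told apart.

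The genes of the β2 partners lie close together. On GRCm38, Itgam runs from 128062640 to 128118491 and Itgax from 128129547 to 128150657 on the plus strand of chromosome 7, 11.06 kb apart, with Itgad 3.719 kb further on (from 128154376 to 128223816) and Itgal 727.5 kb before Itgam (from 127296260 to 127335138). The α4 and αv genes are on chromosome 2 (Itga4 from 79255426 to 79333123, Itgav from 83724397 to 83806916, both plus strand) and Itgae is on chromosome 11 (73090583 to 73147446, plus). Of the β chain genes, Itgb1 is on chromosome 8 (128685654 to 128733200, plus), Itgb2 on chromosome 10 (77530252 to 77565708, plus), Itgb7 on chromosome 15 (102215995 to 102231944, minus) and Itgb8 on chromosome 12 (119158022 to 119238802, minus). The annotation gives 30 exons for Itgax, 31 for Itgae and 28 for Itga4, and 15 or 16 for Itgb7, Itgb1 and Itgb2. Reads on Itgam are uncertain where a second gene model counts. Exons of Gm49368, which is not among the genes listed, overlap 68.7% of the Itgam exons on the same strand. Of the 75-base windows of Itgam transcripts, 65.2% also occur in some other gene, against 5.01% for Itgax and 0.21% for Itgb2. The other 7 members share no such window.

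Promoters of 4 members are shown, as 250 bases ending just before the RefSeq start of the gene (RefSeq, GRCm38.p6), because the members of each pair had different patterns over the subsets: Itgam and Itgax as neighbours on the chromosome, Itgb7 and Itgb1 as the β chains that share α4. Capitals mark GAGGAA (the core that PU.1, a myeloid transcription factor, binds), TGTGGT (a RUNX core) and CAGNTG (an E-box of the kind E proteins such as the pDC factor TCF4 bind), read on both strands. Itgam is at chr7:128062390-128062639 (plus), Itgax at chr7:128129300-128129549 (plus), Itgb7 at chr15:102231936-102232185 (minus) and Itgb1 at chr8:128685404-128685653 (plus).
Itgam: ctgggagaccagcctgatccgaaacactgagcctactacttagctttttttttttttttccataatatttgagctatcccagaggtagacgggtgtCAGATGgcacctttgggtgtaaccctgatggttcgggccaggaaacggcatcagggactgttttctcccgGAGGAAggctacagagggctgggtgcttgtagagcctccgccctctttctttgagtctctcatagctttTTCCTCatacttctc
Itgax: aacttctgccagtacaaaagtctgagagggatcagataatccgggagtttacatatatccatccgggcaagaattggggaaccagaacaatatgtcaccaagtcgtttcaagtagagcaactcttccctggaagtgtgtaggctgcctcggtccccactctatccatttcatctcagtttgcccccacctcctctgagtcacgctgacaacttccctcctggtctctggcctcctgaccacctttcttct
Itgb7: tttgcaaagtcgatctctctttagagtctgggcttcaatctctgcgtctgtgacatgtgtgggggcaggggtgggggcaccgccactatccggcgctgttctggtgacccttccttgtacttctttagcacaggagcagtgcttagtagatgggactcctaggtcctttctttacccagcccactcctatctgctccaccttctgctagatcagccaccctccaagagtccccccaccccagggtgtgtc
Itgb1: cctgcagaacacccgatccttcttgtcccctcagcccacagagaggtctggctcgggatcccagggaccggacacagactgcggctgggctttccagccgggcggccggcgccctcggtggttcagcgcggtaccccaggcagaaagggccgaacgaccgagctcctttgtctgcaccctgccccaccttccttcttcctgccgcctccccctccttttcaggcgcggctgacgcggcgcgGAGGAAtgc
The Itgam window held GAGGAA 2 times and CAGNTG 1 time, the Itgb1 window held GAGGAA 1 time, and the windows of Itgax and Itgb7 held none of the 3 motifs. Over 32851 promoters of the same length, 23.3% held GAGGAA, 14% TGTGGT and 44.8% CAGNTG, so a match is a description of these letters and not a binding site. RefSeq entries were matched for 7 of the 10 members.

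**Figure D1:**
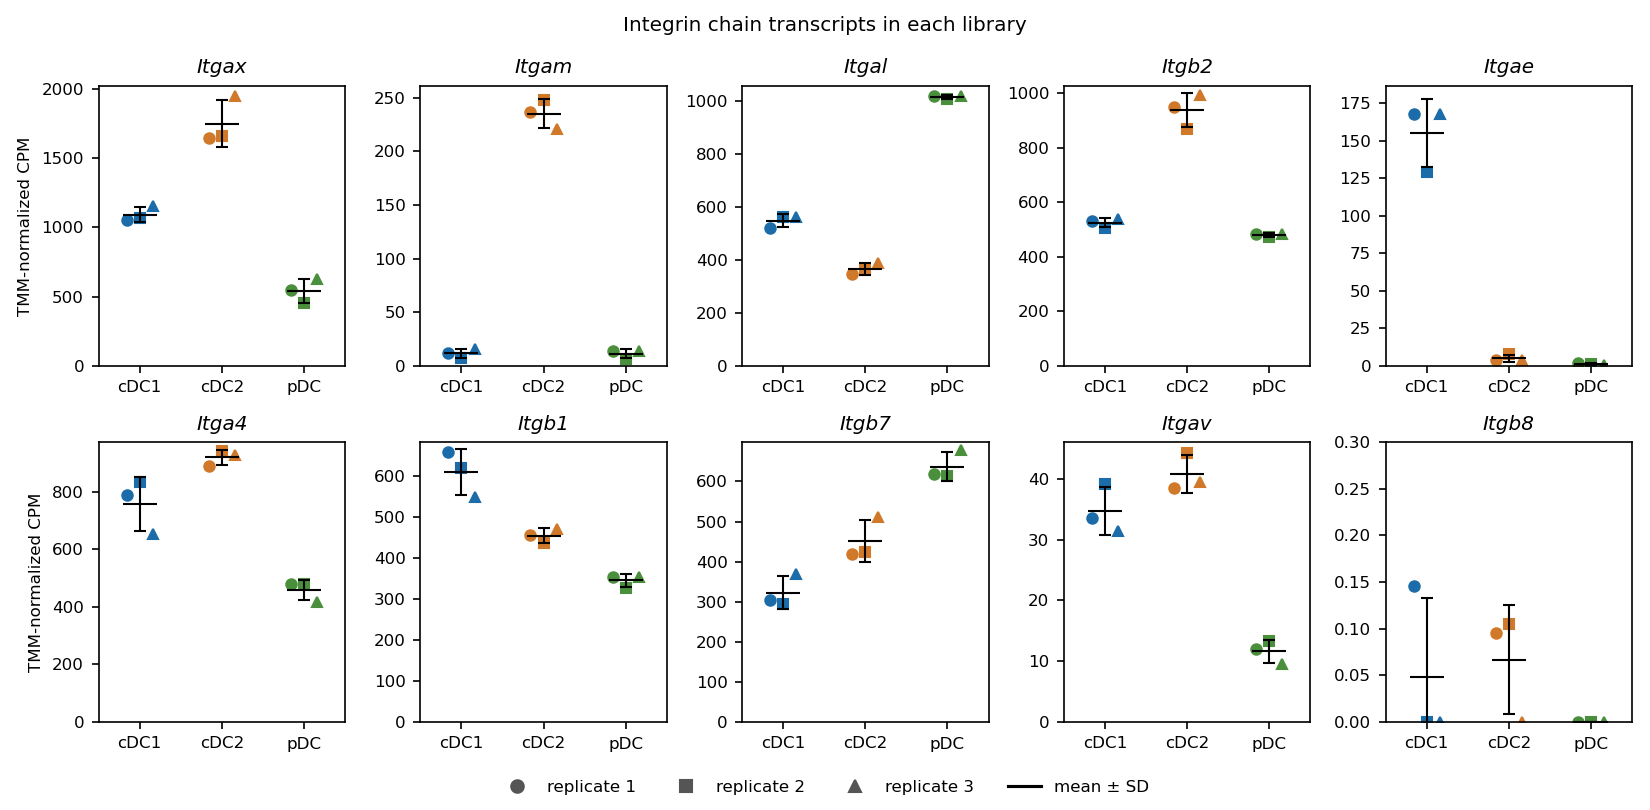
Level of each of the 10 integrin chain transcripts (TMM-normalized CPM, linear axes from 0, each gene on its own scale) in 3 libraries each of cDC1, cDC2 and pDC. Points are libraries, with a marker shape per replicate number, and bars are the mean ± SD; Itgal and Itgb7 were highest in pDC, Itgae and Itgb1 in cDC1, Itgax, Itgam and Itgb2 in cDC2, and Itgb8 was at or near 0 in every library.

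The subsets differed in the levels of integrin chains, most of which were present in all of them. pDC carried more Itgal and Itgb7 than both cDC subsets and less Itga4, Itgav, Itgb1 and Itgae. cDC1 carried the most Itgae and Itgb1. cDC2 carried more Itgb2 than both other subsets. Of the 7 members outside the sort panel that were tested, 6 differed between pDC and cDC1 at an adjusted p under 0.05, which is meant by a call from here on (2 higher in pDC, 4 lower), against 48.6% of all genes tested (24.3% higher, 24.4% lower). Between pDC and cDC2 all 7 differed (2 higher, 5 lower), against 45.8% of all genes (22.5% higher, 23.3% lower). Between cDC2 and cDC1, 5 differed (2 higher in cDC2, 3 lower), against 24.4% of all genes (12.7% higher, 11.7% lower). Itgal, Itgae, Itgb1 and Itgb7 were called in all 3 comparisons. Differences were tested by the quasi-likelihood method of edgeR, and the adjusted p-values below are corrected by Benjamini and Hochberg's procedure over all genes tested. The 3 comparisons share libraries, and the values measure the spread between separately pooled sorts.

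**Figure D2:**
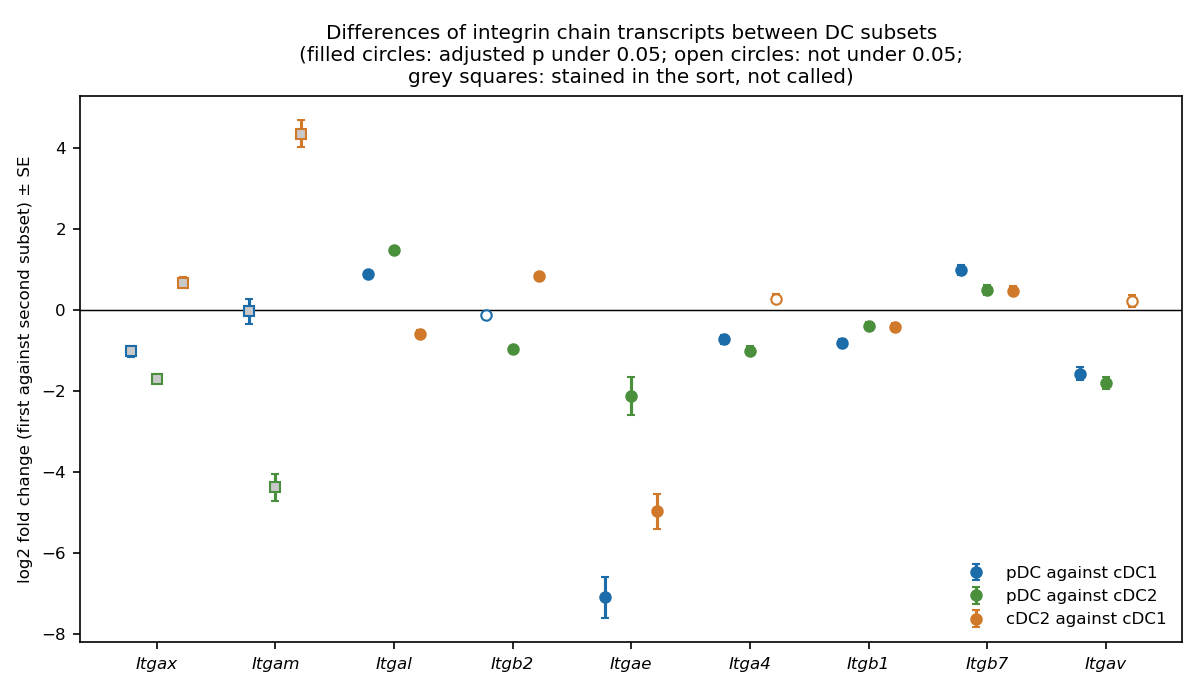
Log2 fold change ± SE (vertical axis, first subset against the second) of 9 integrin chain transcripts in the 3 comparisons, from the edgeR fit of 9 libraries. Filled circles had an adjusted p under 0.05, open circles did not, and grey squares are the chains stained in the sort; Itgae spans from -7.09 to -2.12 while Itgb1 and Itgb7 stay within 1 log2 unit of 0.

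Among the β2 partners, the order of levels differed between the subsets. Itgal, the α chain of LFA-1, which holds DC and lymphocytes together, was at 1021, 1007 and 1019 CPM in pDC replicates 1, 2 and 3, at 519, 561 and 563 CPM in cDC1 and at 346, 360 and 390 CPM in cDC2. The 3 groups did not overlap, and the SD in pDC was 0.753% of the mean, the lowest of any member. Itgal was 1.85-fold higher in pDC than in cDC1 (log2 fold change 0.89, SE 0.083, edgeR adjusted p = 1.47e-05) and 2.78-fold higher than in cDC2 (1.48, SE 0.0841, edgeR adjusted p = 6.08e-07). cDC2 in turn had 1.5-fold less than cDC1 (log2 fold change -0.58, SE 0.0827, edgeR adjusted p = 0.000655). Each difference had the same sign in all 3 same-numbered pairs.

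Itgb2, the β chain common to these receptors, was at 951, 870 and 993 CPM in cDC2, at 533, 507 and 537 CPM in cDC1 and at 485, 473 and 482 CPM in pDC. cDC2 stood well above both other subsets, which lay close to each other. Within each subset replicate 2 was the lowest, as was the sum of 7 macrophage markers given below, and the part of macrophages in Itgb2 was not tested. The level in cDC2 was 1.78-fold that in cDC1 (log2 fold change 0.83, SE 0.0826, edgeR adjusted p = 7.29e-05), and pDC had 1.95-fold less than cDC2 (log2 fold change -0.97, SE 0.0828, edgeR adjusted p = 9.22e-06). Between pDC and cDC1 the test was not passed (log2 fold change -0.13, SE 0.0821, approximate 95% interval -0.29 to 0.03, edgeR adjusted p = 0.216). Such intervals are taken from the SE by the normal distribution, so they are narrower than the edgeR test implies. Itgal was thus called higher in pDC than in cDC1, while Itgb2 was not called and its mean was slightly lower in pDC.

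The members stained in the sort followed the gates. Itgax (CD11c) was at 1646, 1658 and 1948 CPM in cDC2, at 1056, 1065 and 1153 CPM in cDC1 and at 544, 451 and 626 CPM in pDC, with no overlap. Although both cDC subsets were gated as CD11c-high, the mean was 1.60-fold higher in cDC2 than in cDC1 (log2 fold change 0.68). Itgam (CD11b) was at 237, 248 and 221 CPM in cDC2, against 11.5, 7.46 and 15.8 in cDC1 and 13.7, 6.64 and 13.4 in pDC. The 2 negative subsets overlapped, at 4.93% and 4.79% of the cDC2 mean. Within each of them, the library with the least Itgam, replicate 2, also had the least neutrophil marker transcript: 6 genes summed to 27.0, 7.59 and 36.6 CPM in cDC1 replicates 1, 2 and 3 and to 46.9, 5.27 and 60.1 in pDC. The sum of the 7 macrophage markers was also lowest in replicate 2, at 157, 92.1 and 117 CPM in cDC1 and 127, 28.1 and 155 in pDC. Their part in the remaining Itgam was not tested. The 6 cDC2 markers also remained to unequal degrees. In cDC1 they ran from 2.88% (Clec4a4) and 6.24% (Sirpa) of the cDC2 level to 21.6% (Irf4). In pDC Clec4a4 stood at 0.767% and Esam at 1.77%, but Sirpa at 53.9% and Irf4 at 76.3%, and Cd209a and Clec10a were above their cDC2 level.

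Per kb of exon, the make-up of the β2 partners turned over between cDC and pDC. The 4 α chains that pair with β2, Itgal, Itgam, Itgax and Itgad, were summed as counts per kb in each library. Itgal made up 26.5 ± 0.929% of this sum in cDC1 (mean ± SD, n = 3), 11.9 ± 0.306% in cDC2 and 56.8 ± 3.92% in pDC. Itgax made up 72.3 ± 0.520%, 77.6 ± 1.54% and 41.0 ± 3.65%. Itgam reached 8.61 to 10.9% in the 3 cDC2 libraries and stayed at 0.729 ± 0.236% in cDC1 and 0.810 ± 0.249% in pDC. Itgad made up 0.434 ± 0.178% in cDC1, 0.479 ± 0.155% in cDC2 and 1.48 ± 0.176% in pDC. Exons of other genes overlap 7.32% of the Itgad exons on the same strand and 12.4% on the other strand, and their part in its counts was not tested. In every pDC library Itgal was the leading β2 partner (53.1 to 60.9%), and in every cDC library it was Itgax (71.7 to 79.4%). Itgb2 per kb came to 0.549 ± 0.0247 of the summed α chains in cDC1, 0.656 ± 0.0379 in cDC2 and 0.577 ± 0.0370 in pDC. Since Itgax and Itgam were gated, these shares are given without a test, and they rest on the merged exon length of each gene.

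**Figure D3:**
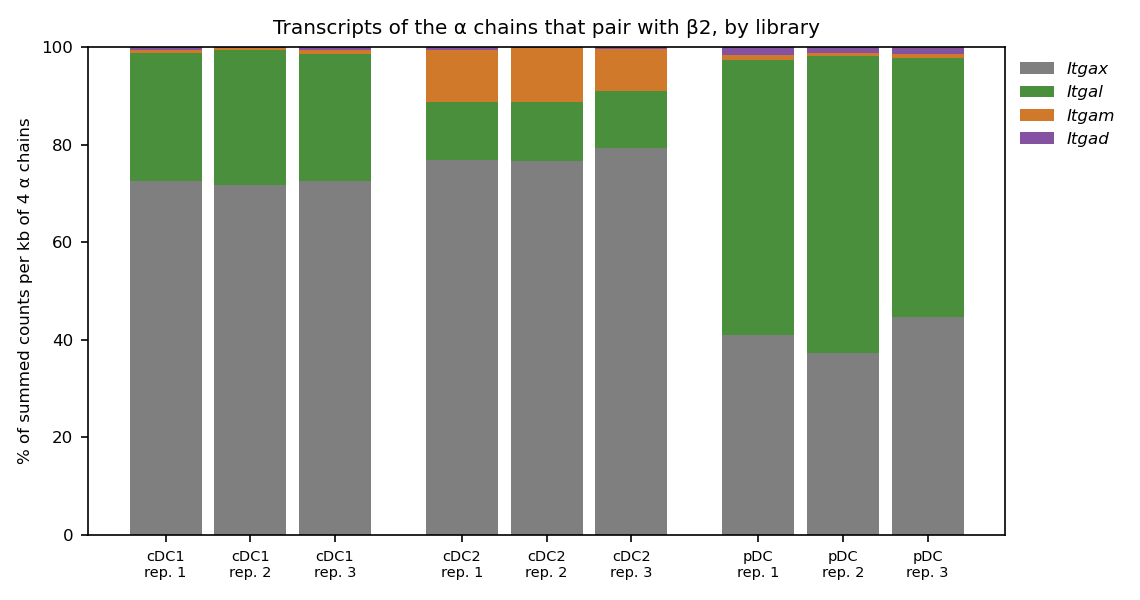
Share of each α chain gene (% of the summed counts per kb of the 4 α chains that pair with β2) in each of 9 libraries, stacked from 0 to 100%. Itgal fills 53.1 to 60.9% of the bar in pDC and 11.6 to 27.6% in cDC, and Itgam is a clear band only in the 3 cDC2 libraries.

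Itgae, which encodes the αE chain CD103, differed more than any other member between cDC1 and each other subset. It was at 168, 129 and 168 CPM in cDC1, at 3.47, 7.67 and 3.56 CPM in cDC2 and at 1.85, 0.912 and 0.353 CPM in pDC. The groups did not overlap, and the lowest value rests on 6 counts. cDC2 had 31.4-fold less than cDC1 (log2 fold change -4.97, SE 0.437, edgeR adjusted p = 3.64e-05) and pDC 136-fold less (-7.09, SE 0.502, edgeR adjusted p = 2.29e-06). The step between pDC and cDC2 also passed the test (log2 fold change -2.12, SE 0.466, edgeR adjusted p = 0.00428). The spread was wide in both low subsets, at 48.9% of the mean in cDC2 and 72.7% in pDC. The level in cDC2, 3.16% of that in cDC1 (2.24 to 4.95% by library), was within the range of the 6 cDC1 markers there, which was wide. Cd8a, which the gate uses, stood at 1.47% of its cDC1 level, Cadm1, an adhesion molecule, at 5.21%, Xcr1, a chemokine receptor, at 5.30%, Clec9a, a receptor for dead cells, at 8.03%, Tlr3, a sensor of double-stranded RNA, at 9.68% and Batf3, a transcription factor, at 72.2%. In pDC Itgae stood at 0.669%, Xcr1 at 0.495%, Tlr3 at 0.570% and Batf3 at 1.64%, whereas Cadm1 stood at 10.3%, Cd8a at 23.5% and Clec9a at 40.3%. Whether a few cDC1 in the cDC2 gate carry this Itgae was not tested.

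The chains that share α4 moved apart. Itgb7 rose from cDC1 to cDC2 to pDC while Itgb1 fell in the same order, and the common partner Itga4 was lowest in pDC. Itgb7, the β chain of the gut-homing receptor α4β7 and of αEβ7, was at 304, 295 and 369 CPM in cDC1, 419, 424 and 511 CPM in cDC2 and 618, 614 and 678 CPM in pDC. The 3 groups did not overlap, and replicate 3 was the highest library in each. The level in pDC was 1.97-fold that in cDC1 (log2 fold change 0.98, SE 0.121, edgeR adjusted p = 0.000101) and 1.41-fold that in cDC2 (0.50, SE 0.12, edgeR adjusted p = 0.00715). The step from cDC1 to cDC2 was 1.40-fold (log2 fold change 0.48, SE 0.12, edgeR adjusted p = 0.0151), and it no longer passed without cDC1 replicate 1, cDC1 replicate 2 or cDC2 replicate 3 (edgeR adjusted p = 0.066, 0.0636 and 0.0636, log2 fold change 0.44, 0.42 and 0.36).

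Itgb1, the β chain of most matrix receptors, was at 659, 619 and 549 CPM in cDC1, at 455, 436 and 471 CPM in cDC2 and at 354, 327 and 354 CPM in pDC. Its groups did not overlap either, in the reverse order of Itgb7. pDC had 1.77-fold less than cDC1 (log2 fold change -0.82, SE 0.0947, edgeR adjusted p = 6.42e-05) and 1.32-fold less than cDC2 (-0.40, SE 0.0943, edgeR adjusted p = 0.00656). cDC2 had 1.34-fold less than cDC1 (log2 fold change -0.42, SE 0.0942, edgeR adjusted p = 0.00862).

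Itga4, whose product pairs with both β1 and β7, was at 788, 833 and 652 CPM in cDC1, at 891, 941 and 929 CPM in cDC2 and at 479, 481 and 418 CPM in pDC. All pDC libraries lay below all cDC libraries. pDC had 1.65-fold less than cDC1 (log2 fold change -0.72, SE 0.109, edgeR adjusted p = 0.000398) and 2.00-fold less than cDC2 (-1.0, SE 0.11, edgeR adjusted p = 4.98e-05). Between cDC2 and cDC1 the test was not passed (log2 fold change 0.28, approximate 95% interval 0.07 to 0.49, edgeR adjusted p = 0.0947), but with the replicate number as a block it was (0.29, edgeR adjusted p = 0.0156). Exons of Cerkl on the other strand overlap 8.04% of the Itga4 exons, and the strand setting of the counting is not given in the sources used here.

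Ratios within a library do not depend on how libraries are scaled. Per kb, the log2 ratio of Itgb7 to Itgb1 was -0.56, -0.51 and -0.01 in cDC1, 0.44, 0.52 and 0.68 in cDC2 and 1.36, 1.47 and 1.49 in pDC, so that Itgb7 went from 0.779 times Itgb1 in cDC1 to 2.72 times in pDC. An exact permutation test over all arrangements of the 9 libraries in 3 groups gave p = 0.00357 (adjusted over the 3 ratios computed, 0.00536), the smallest that these arrangements allow. Since same-numbered libraries deviated together, labels were also exchanged only within replicate numbers, which gave an exact permutation p = 0.0278 for each of the 3 ratios, the smallest that these 216 arrangements allow. In cDC1 the replicate-3 library stood apart from the other 2, near equal levels. The log2 ratio of Itgae to Itgb7 was -1.58, -1.92 and -1.87 in cDC1, -7.64, -6.52 and -7.89 in cDC2 and -9.11, -10.12 and -11.63 in pDC (exact permutation p = 0.00357, adjusted 0.00536). cDC1 thus had 1 Itgae transcript per kb for 2.99 to 3.78 of Itgb7, and cDC2 1 for 91.5 to 238. Itga4 against the sum of Itgb1 and Itgb7 gave a log2 ratio of -2.30 ± 0.21 in cDC1 (mean ± SD, n = 3), -2.06 ± 0.11 in cDC2 and -3.26 ± 0.18 in pDC (exact permutation p = 0.00714, adjusted 0.00714), where the cDC1 and cDC2 libraries overlapped and the pDC libraries lay below both.

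**Figure D4:**
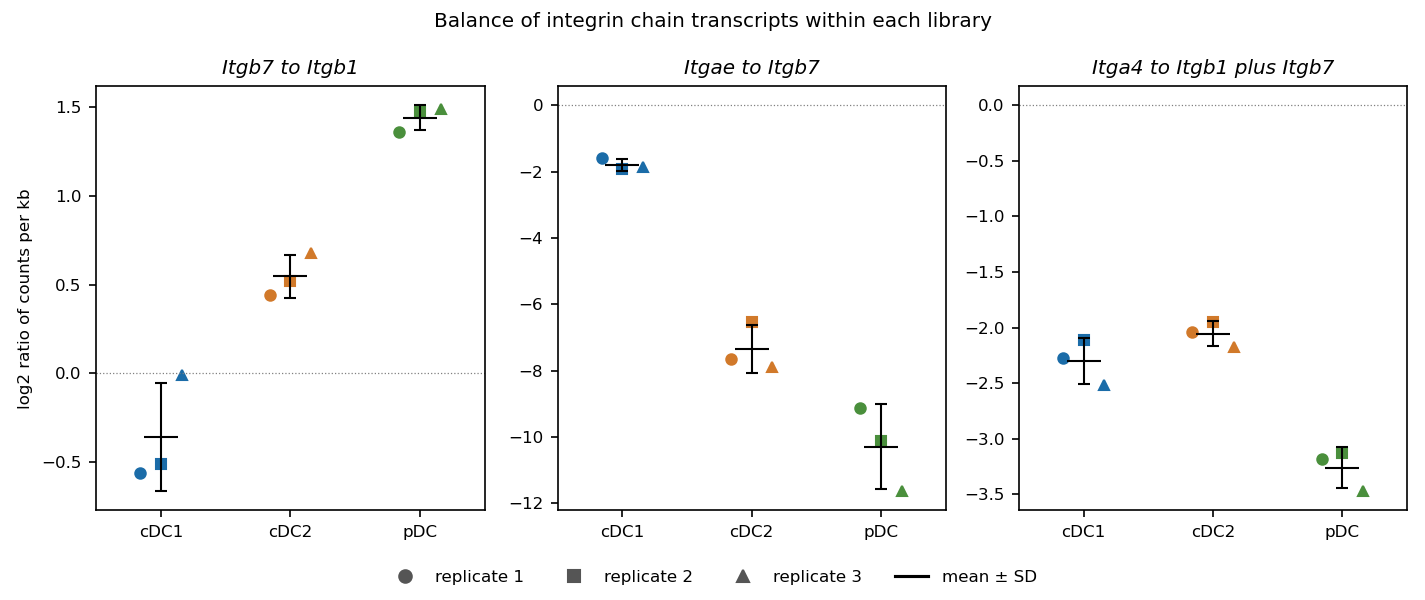
Log2 ratio of counts per kb (vertical axis) within each of 9 libraries for Itgb7 to Itgb1, Itgae to Itgb7 and Itga4 to the sum of Itgb1 and Itgb7. Points are libraries, bars the mean ± SD and the dotted line equal levels; the ratio of Itgb7 to Itgb1 crosses the line between cDC1 (-0.56 to -0.01) and cDC2 (0.44 to 0.68).

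Itgav was low next to most members, and Itgb8 lay at or near the floor of detection. Itgav was at 33.5, 39.2 and 31.5 CPM in cDC1, at 38.5, 44.3 and 39.5 CPM in cDC2 and at 12, 13.3 and 9.60 CPM in pDC. Every pDC library lay below every cDC library, and the 2 cDC subsets overlapped. pDC had 2.97-fold less than cDC1 (log2 fold change -1.57, SE 0.155, edgeR adjusted p = 2.13e-05) and 3.49-fold less than cDC2 (-1.80, SE 0.156, edgeR adjusted p = 9.72e-06). cDC2 and cDC1 were not told apart (log2 fold change 0.23, approximate 95% interval -0.06 to 0.52, edgeR adjusted p = 0.323). Itgb8 had 4, 0 and 0 counts in cDC1, 3, 3 and 0 in cDC2 and 0 in all 3 pDC libraries. Only cDC1 replicate 1 was above the floor of 3 counts, and no ratio of Itgb8 to Itgav was computed. At such counts no difference in Itgb8 was detectable.

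Within a subset, the members could be ranked per kb of exon. In cDC1 the mean CPM per kb ran from Itgax (227), Itgb2 (172), Itgb1 (149) and Itgb7 (117) through Itgal (83.4), Itga4 (54.2) and Itgae (33.8) to Itgav (3.23) and Itgam (2.31). In cDC2 the order was Itgax (364), Itgb2 (307), Itgb7 (163), Itgb1 (111), Itga4 (65.8), Itgal (55.6), Itgam (46.8), Itgav (3.80) and Itgae (1.07). In pDC it was Itgb7 (230), Itgb2 (157), Itgal (155), Itgax (112), Itgb1 (84.5), Itga4 (32.8), Itgam (2.24), Itgav (1.09) and Itgae (0.226). Itgb7 thus led in pDC and stood behind Itgb2 in both cDC subsets. Neighbours in these orders were apart in all libraries, except Itgb2 and Itgal in pDC (155 to 159 against 153 to 155 CPM per kb) and Itgav and Itgam in cDC1 (2.93 to 3.64 against 1.49 to 3.14), whose libraries overlapped.

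Several chains beyond the members differed widely between the subsets. Of 15 further integrin chain genes outside the sort panel, 10 had enough counts for a test. Between pDC and cDC1, 7 of these differed (2 higher in pDC, 5 lower; 48.6% of all genes tested), between pDC and cDC2 also 7 (1 higher, 6 lower; 45.8% of all genes) and between cDC2 and cDC1, 8 (2 higher in cDC2, 6 lower; 24.4% of all genes). Itgb3, the β3 chain that pairs with αv and, on platelets, with αIIb, was at 160, 146 and 135 CPM in pDC, at 46.5, 50.9 and 43.3 CPM in cDC2 and at 12.6, 8.84 and 12.1 CPM in cDC1. It was 13.1-fold higher in pDC than in cDC1 (log2 fold change 3.72, SE 0.162, edgeR adjusted p = 1.29e-07) and 3.13-fold higher than in cDC2 (1.65, SE 0.147, edgeR adjusted p = 1.24e-05), and cDC2 stood above cDC1 (2.07, SE 0.153, edgeR adjusted p = 1.36e-05). Per kb its mean in pDC, 24.9 CPM, lay below that of Itga4 and above those of Itgam, Itgav and Itgae. Itgb3 and its partner Itgav thus differed in opposite directions between pDC and each cDC subset. The 6 platelet markers, of which Itga2b is 1, summed to 0.608 to 1.21 CPM in pDC, 0.532 to 1.82 in cDC2 and 1.58 to 3.18 in cDC1. In pDC Pf4 had 6, 0 and 0 counts, Gp1bb 4, 0 and 0, Ppbp 1, 0 and 0, and Gp9 and Gp6 none. The part of platelets in the level of Itgb3 was not tested.

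Itga1, Itga3, Itga5, Itga6 and Itga8 were called lower in both cDC2 and pDC than in cDC1. Itga8, which pairs with β1, was at 46.9, 57.1 and 42.4 CPM in cDC1, at 4.37, 7.07 and 3.83 in cDC2 and at 0.333, 0.152 and 0 CPM in pDC, where 11, 3 and 0 reads were counted. Its log2 fold change was -3.25 for cDC2 against cDC1 (SE 0.359, edgeR adjusted p = 0.00014) and -7.94 for pDC against cDC1 (SE 0.505, edgeR adjusted p = 1.18e-06). Itga1, a collagen receptor chain, averaged 16.8 ± 5.02 CPM in cDC1, 1.94 ± 0.367 in cDC2 and 0.374 ± 0.340 CPM in pDC, and Itga3, a laminin receptor chain, averaged 9.46 ± 1.56, 1.55 ± 0.128 and 0.805 ± 0.402 CPM in the same order. In that order Itga6, of laminin receptors, averaged 20.6 ± 1.31, 7.84 ± 1.94 and 3.45 ± 1.76 CPM, and Itga5, the fibronectin receptor chain, 22.8 ± 1.31, 13.3 ± 1.59 and 7.83 ± 0.590. In cDC2, Itga8 stood at 10.4% of its cDC1 mean, Itga1 at 11.6% and Itga3 at 16.4%, against 3.16% for Itgae.

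Itga9 and Itgb5 had their highest means in cDC2. Itga9 was at 13.7, 9.87 and 14.8 CPM there, against 0.876 to 3.21 in cDC1 and 0.963 to 3.27 in pDC (edgeR adjusted p = 0.00403 and 0.00253). Itgb5, which pairs with αv, averaged 9.36 ± 2.18 CPM in cDC2, 4.14 ± 1.78 in cDC1 and 3.43 ± 1.36 CPM in pDC, where the difference from pDC passed the test (edgeR adjusted p = 0.0184, but 0.0648 without cDC2 replicate 1 and 0.0523 without pDC replicate 2). Its difference from cDC1 did not pass (edgeR adjusted p = 0.0687, and 0.00329 with the replicate block). In every subset both genes were lowest in replicate 2 (Itgb5 at 2.13, 6.90 and 1.88 CPM in cDC1, cDC2 and pDC), as was the macrophage marker sum. That sum was also highest in cDC2 (621, 452 and 616 CPM in replicates 1, 2 and 3), where Adgre1 alone gave 334, 308 and 390 CPM. C1qa, C1qb and C1qc averaged 42.6, 48.0 and 41.2 CPM in cDC2 and were also highest there, whereas Vcam1 was not (67.9 CPM, against 72.6 in cDC1). The part of macrophages in the levels of Itga9 and Itgb5 was not tested. Itgad stood at 18.3 ± 3.04 CPM in pDC, 10.1 ± 2.92 in cDC2 and 6.17 ± 2.56 CPM in cDC1, and its step above cDC1 passed (log2 fold change 1.57, edgeR adjusted p = 0.00402). The step of Itgad above cDC2 did not pass (0.86, edgeR adjusted p = 0.063, and 0.00523 with the block), nor did that of cDC2 above cDC1 (0.71, edgeR adjusted p = 0.174, and 0.0211 with the block). Itgad was also lowest in replicate 2 of each subset (3.21, 7.32 and 14.9 CPM in cDC1, cDC2 and pDC). The parts of macrophages and of the genes that overlap Itgad in its level were not tested. Itga2b, the platelet chain, was low, at 2.10 ± 0.915 CPM in cDC1, 0.601 ± 0.148 in cDC2 and 0.829 ± 0.201 CPM in pDC, and was called only between cDC2 and cDC1 (edgeR adjusted p = 0.0289). That call was lost with no filter on low counts (edgeR adjusted p = 0.0691) and without either cDC1 replicate 1 or 3 or any 1 of the cDC2 libraries (edgeR adjusted p = 0.0809, 0.112, 0.0674, 0.103 and 0.0603). Among chains with too few counts, Itgb4 had 42 and 36 counts in pDC replicates 1 and 2, 0 in pDC replicate 3 and at most 5 in every other library.

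**Figure D5:**
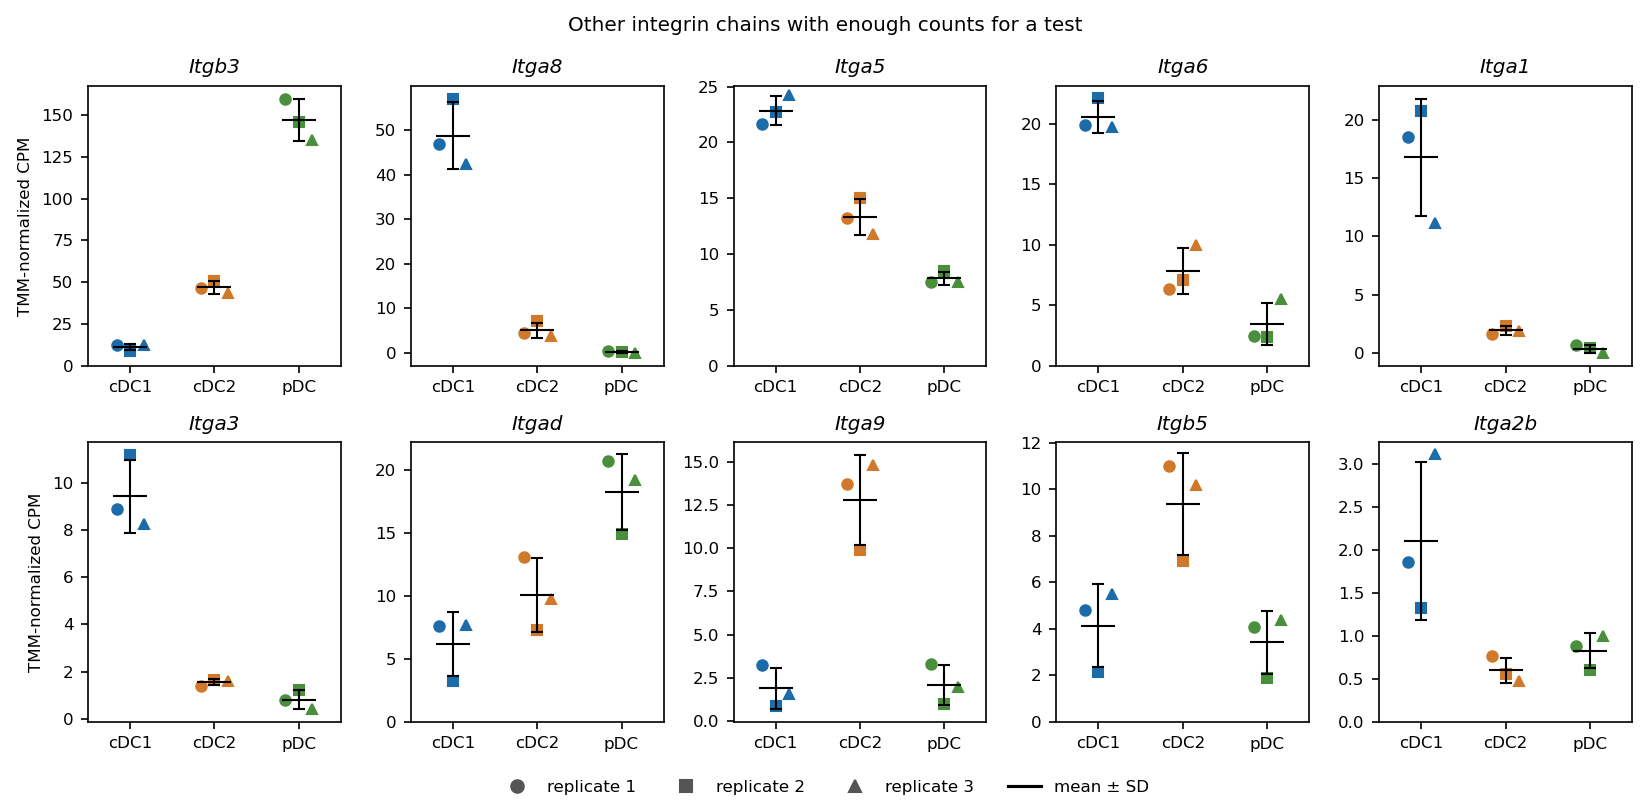
Level (TMM-normalized CPM, linear axes, each gene on its own scale) of the 10 integrin chains outside the members that had enough counts for a test, in 3 libraries each of cDC1, cDC2 and pDC. Points are libraries and bars the mean ± SD; Itgb3 is highest in pDC (135 to 160 CPM), Itga8 in cDC1 (42.4 to 57.1 CPM) and Itga9 in cDC2 (9.87 to 14.8 CPM).

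Inside the cell, talin, kindlin and their regulators switch integrins to the binding state, and adaptors such as parvins link them to actin. Of 30 such genes, 27 were tested. Between pDC and cDC1, 16 differed (10 higher in pDC, 6 lower), which is 59.3% against 48.6% of all genes, and between pDC and cDC2, 14 (4 higher, 10 lower), 51.9% against 45.8%. Between cDC2 and cDC1, 11 differed (8 higher in cDC2, 3 lower), 40.7% against 24.4%. With the replicate block the latter count rose to 20, while that of all genes rose from 3370 to 4916. The median log2 fold change of the list was 0.17, -0.17 and 0.25 in these comparisons, beside 0.02, -0.01 and 0.03 over all genes tested. Rasgrp2, the exchange factor that activates Rap1 upstream of talin, was at 102, 114 and 100 CPM in pDC, at 18.0, 19.4 and 21.8 CPM in cDC2 and at 6.19, 5.13 and 6.97 CPM in cDC1. Like Itgal it was highest in pDC, but unlike Itgal it was higher in cDC2 than in cDC1, with a log2 fold change of 4.12 (SE 0.154, edgeR adjusted p = 6.16e-08) for pDC against cDC1 and 1.70 (SE 0.144, edgeR adjusted p = 2.82e-05) for cDC2 against cDC1. Fyb, the adaptor ADAP of T cell LFA-1 activation, stood at 526 ± 206 CPM (mean ± SD, n = 3, as for the genes that follow) in pDC, 366 ± 86.9 in cDC2 and 98.9 ± 41.7 CPM in cDC1, and in each subset its replicate-3 library was the lowest (292, 274 and 50.7 CPM).

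Of the 3 parvins, Parvg and Parvb were called lower in pDC than in both cDC subsets, and Parva had too few counts for a test (at most 15 per library). Parvg stood at 240 ± 30.6 CPM in pDC and at 547 ± 18.8 and 553 ± 42.8 in cDC2 and cDC1 (log2 fold change -1.19 and -1.21, edgeR adjusted p = 1.79e-05 and 1.46e-05). Parvb stood at 0.896 ± 0.349 CPM in pDC and at 7.42 ± 3.02 and 6.46 ± 2.37 in cDC2 and cDC1 (log2 fold change -3.02 and -2.82, edgeR adjusted p = 0.000407 and 0.000582). Of cytohesin-1, which promotes adhesion through β2, and its partner Cytip, the former was called lower and the latter higher in cDC2 than in cDC1. Cyth1 stood at 118 ± 12.3 CPM in pDC, 91.1 ± 10.7 in cDC1 and 60.3 ± 4.28 CPM in cDC2, and Cytip at 224 ± 37.8, 255 ± 20.2 and 534 ± 19.3 CPM. Sharpin, an inhibitor of β1 integrins, was called lower in cDC2 than in cDC1 (45.9 ± 4.39 against 60.9 ± 4.64 CPM, log2 fold change -0.41, edgeR adjusted p = 0.022), a call that was lost without cDC1 replicate 1, cDC2 replicate 1 or cDC2 replicate 2 (edgeR adjusted p = 0.0566, 0.0842 and 0.0737) and with library size as the only scaling (log2 fold change -0.30, edgeR adjusted p = 0.0593).

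Genes for integrin ligands were also carried by the DC themselves. Of 20 ligand genes, 12 were tested, of which 5 differed between pDC and cDC1 (2 higher in pDC, 3 lower; 41.7% against 48.6% of all genes), 6 between pDC and cDC2 (2 higher, 4 lower; 50% against 45.8%) and 2 between cDC2 and cDC1 (both higher in cDC2; 16.7% against 24.4%). These shares lay near those of all genes. The last count was 4 both with the replicate block and without the 3 replicate-3 libraries. The median log2 fold change of the list was -0.40, -0.84 and 0.47. Cdh1, which encodes E-cadherin, the ligand of αEβ7, was at 455, 458 and 406 CPM in pDC, at 2.29, 0.959 and 1.08 CPM in cDC1 and at 3.00, 1.61 and 2.71 CPM in cDC2. Its log2 fold change in pDC was 8.20 against cDC1 (SE 0.357, edgeR adjusted p = 1.29e-07) and 7.50 against cDC2 (SE 0.341, edgeR adjusted p = 1.78e-07), so the ligand gene was at its highest in the subset with the lowest Itgae. Icam2, a ligand of LFA-1, stood at 24.1 ± 2.91 CPM in pDC, 14.2 ± 1.81 in cDC2 and 10.1 ± 2.48 CPM in cDC1 and was called higher in pDC in both comparisons. Icam1, the main ligand of LFA-1, named after its values were seen, ran the other way, at 149 ± 0.481 CPM in pDC, 314 ± 20.7 in cDC2 and 351 ± 21.9 CPM in cDC1 (log2 fold change -1.07 and -1.23, edgeR adjusted p = 8.34e-06 and 2.99e-06). Spp1 (osteopontin, bound by αv and α4 integrins) averaged 15.8 ± 0.482 CPM in cDC1, 7.56 ± 0.922 in cDC2 and 0.330 ± 0.319 CPM in pDC. F11r (JAM-A) was highest in cDC2, at 25.4 ± 6.59 CPM against 5.10 ± 1.64 in cDC1 and 1.75 ± 1.33 in pDC. C3, the source of the CD11b and CD11c ligand iC3b, was at 64.8, 35.5 and 49.6 CPM in cDC2, the subset with the most Itgam, against means of 7.73 ± 4.24 in cDC1 and 11.6 ± 6.50 in pDC. The macrophage marker sum was also highest in cDC2 (452 to 621 CPM, of which Adgre1 gave 308 to 390), against 92.1 to 157 in cDC1 and 28.1 to 155 in pDC. Like C3 and F11r, it was lowest in replicate 2 of every subset. The part of macrophages in the levels of C3 and F11r was not tested.

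The last group holds genes of the families by which TGF-β is stored, activated and read, the pathway that αv integrins serve. Of 20 such genes, 17 were tested, and 9 differed between pDC and cDC1 (6 higher in pDC, 3 lower; 52.9% against 48.6% of all genes). Between pDC and cDC2, 13 differed (7 higher, 6 lower; 76.5% against 45.8%), and between cDC2 and cDC1, 9 (8 higher in cDC2, 1 lower; 52.9% against 24.4%), or 5 without cDC1 replicate 1. The median log2 fold change was 0.46, 0.09 and 0.18. Tgfbr1, the type I receptor, was at 116, 114 and 138 CPM in pDC, at 44.4, 52.5 and 45.6 CPM in cDC2 and at 28.0, 30.7 and 23.2 CPM in cDC1 (log2 fold change 2.16 for pDC against cDC1, SE 0.142, edgeR adjusted p = 1.44e-06). It was thus highest where Itgav was lowest. Tgfbr3, a co-receptor, stood at 5.34 ± 0.210 CPM in pDC, 0.577 ± 0.503 in cDC2 and 0.568 ± 0.370 CPM in cDC1. Nrros, which anchors latent TGF-β on myeloid cells, averaged 378 ± 43.5 CPM in cDC2, 150 ± 18.8 in cDC1 and 155 ± 8.46 CPM in pDC (log2 fold change 1.34 for cDC2 against cDC1, SE 0.124, edgeR adjusted p = 5.05e-05). It too was highest in the subset with the largest macrophage marker sum, most of it Adgre1, and lowest in replicate 2 of each subset. The part of macrophages in the level of Nrros was not tested. Ltbp2, by name of the latent TGF-β binding protein family, was at 42.8, 41.0 and 24.9 CPM in cDC1 and 4.72, 3.54 and 2.29 in cDC2. In pDC it was at 0.333, 0.101 and 0 CPM, where 11, 2 and 0 reads were counted, an order of subsets like that of Itgae. The part of Ltbp2 in the storage of TGF-β was not tested. Smad7, the inhibitor induced by the pathway, averaged 35.6 ± 2.5 CPM in cDC2, 18.6 ± 9.14 in pDC and 13.5 ± 4.6 CPM in cDC1. Its call between pDC and cDC2 (edgeR adjusted p = 0.0425) was lost in 7 of 18 alternatives. Its call between cDC2 and cDC1 (edgeR adjusted p = 0.0132) was lost in 2 of 18. Smad2, a signal carrier, was lower in pDC than in cDC1 (37.1 ± 2.44 against 58.3 ± 2.63 CPM, log2 fold change -0.65, edgeR adjusted p = 0.000651).

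For each member with enough counts, the 2 genes most like it were sought by Pearson's r of log2(CPM + 1) over the 9 libraries, among 8842 genes. These values describe a pattern over 3 subsets and carry no test, since the libraries fall into 3 groups. Itgal was nearest to Txndc5 and Lman1 (r = 0.997 and 0.996), which work in the endoplasmic reticulum of secreting cells, and Itgb7 to Lgals9 and Rcan3 (0.996 and 0.993). Itgae was nearest to Gramd2 and Gm3336 (0.996 and 0.992) and Itgb1 to Strip2 and Arhgap31 (0.989 and 0.987). For Itgb2 they were Man1a and Cyp4f16 (0.994 and 0.994), for Itga4 Tns3 and Nfatc2 (0.996 and 0.991) and for Itgav Cdon and Whsc1 (0.996 and 0.992). For the gated chains they were Mmp9 and Cd300ld for Itgam (0.996 and 0.995) and Vrk1 and Slc46a3 for Itgax (0.997 and 0.996). No member was among the 2 nearest genes of another.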

How the data were processed

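RNA from 9 libraries (3 subsets, 3 replicates each) had been sequenced on stranded polyadenylated libraries, read from 1 end over 75 bases. The authors deposited raw read counts per gene, not normalized; per the labels' processing notes they used STAR, SAMtools, MultiQC and featureCounts with mm10. Versions, the annotation and the strand setting are not given in the sources used here. Libraries were grouped by their labels. The counts were fitted with edgeR 4.0.16 in R 4.3.3: filterByExpr with a minimum count of 10 (13819 genes kept), TMM factors, all 9 libraries with the subset as the only term, glmQLFTest, Benjamini-Hochberg adjustment and a threshold of 0.05. Same-numbered libraries carry the same date code in the labels and deviated together (mean r of deviations 0.403 over 9 pairs, range 0.266 to 0.543), so the replicate number was taken to pair libraries; the labels do not say what the date is of. The study's methods name no block, and it was run as an alternative. Positions, exon lengths and shared 75-base windows came from GENCODE M21 (GRCm38), in which 95.99% of genes listed were found. Ratios of chains used counts per kb of merged exons and exact permutation tests of the F statistic over the 3 subsets, which single out no pair of subsets. Alternatives were the block, DESeq2 1.42.0, limma-voom (limma 3.58.1), library size only, upper quartile scaling, no filter, 10 counts in every library, only the subsets compared, a log2 fold change of at least 1 and each library left out. Leaving out all 3 replicate-3 libraries was added after seeing the data. Figures used Python 3.11.15 and matplotlib 3.10.9.

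The members and the gene lists were chosen with earlier results of these data known. Named genes were all members, all other integrin chains tested, and from each further list the 2 largest rises and 2 largest falls per comparison among called genes whose mean count was 100 or more in the higher subset and 1 direction in the 3 same-numbered pairs. Icam1, Itgb4, Parva and the single platelet and macrophage markers are named outside this rule, after their values were seen. The single cDC1 and cDC2 markers are also outside it and were given as a check of the sort. Itga2, which encodes the stained CD49b, was left out of the counts of chains.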

Additional observations from a re-analysis of the deposited data

How the results depend on the processing

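Over the 21 differences of the 7 tested chains outside the sort panel, 375 alternative values were computed. None reversed, 370 stayed on the same side of the threshold, 3 lost the call (Itgb7 between cDC2 and cDC1, with single libraries left out) and 2 gained it (Itga4 between cDC2 and cDC1, with the block and with library size only, edgeR adjusted p = 0.0156 and 0.0387). Over 57 differences of 19 named genes of the further lists, 965 of 1017 alternative values stayed on their side, 37 lost and 15 gained a call and none reversed. Itgae got no value with 10 counts in every library, and the planned ratio of Itgb8 to Itgav could not be computed, since Itgb8 was at 0 in most libraries. With the block by replicate number (pairing of libraries), the members called numbered 6 (pDC with cDC1), 7 (pDC with cDC2) and 6 (cDC2 with cDC1), the adaptors called between cDC2 and cDC1 rose to 20 and the ligands to 4, while all genes called there rose from 3370 to 4916. Requiring a log2 fold change of at least 1 left 2, 4 and 1 members, 6, 5 and 6 adaptors, and 4, 6 and 4 TGF-β genes, and of all genes 4063, 3837 and 1812. With 10 counts in every library, 4 other chains were called for pDC against cDC1 and 4 for cDC2 against cDC1, since fewer genes were tested. Without the 3 replicate-3 libraries, 6, 7 and 5 members were called, and 4 ligands between cDC2 and cDC1, where all genes called rose to 5356; the cause was not tested. When single libraries were left out, the members called stayed at 6 and 7 in the comparisons of pDC and numbered 4 to 5 between the cDC subsets, with 5 to 10 TGF-β genes in the latter (5 without cDC1 replicate 1). Low counts limit Itgb8 in all subsets, Itgae, Itga8, Itga1, Spp1 and Ltbp2 in pDC, and Tgfbr3 in cDC1 and cDC2. Itga8, Itga1, Spp1 and Ltbp2 had 0 counts in pDC replicate 3, as had Tgfbr3 in cDC2 replicate 3. At totals of 18990317 and 17104516 counts, pDC replicate 2 held 2459 genes with 1 to 3 counts and pDC replicate 3 held 508. The cause of that gap was not tested.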
